A study of Mus musculus with 4 samples.

Results

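A set of 10 genes that restrain mitogen-activated protein kinase signalling were followed in mouse T helper 2 (Th2) cells grown with HU-308 or with its solvent control DMSO. They were chosen by name, with earlier results of these data known, as a set of feedback genes of the kinase ERK. The set comprises 7 dual-specificity phosphatase genes (Dusp1, Dusp2, Dusp4, Dusp5, Dusp6, Dusp10 and Dusp16) and 3 genes of the Sprouty family (Spry1, Spry2 and Spred1). Dusp10 and Dusp16 encode phosphatases that prefer the kinases p38 and JNK to ERK. All 10 were found among the 54532 genes of the count table, and all 10 passed the low-count filter that left 14316 genes for testing. HU-308 is a synthetic agonist selective for cannabinoid receptor 2, a receptor coupled to inhibitory G proteins. All cells were labelled wild type and came, per the labels, from the bleomycin-induced model of systemic sclerosis; strain, age and the number or pooling of animals are not given in the sources used here. Th2 cultures were started from naive CD4+ cells, with HU-308 or DMSO present; beads carrying antibodies to CD3 and CD28 restimulated them on day 4, and RNA was taken after a further 12 h. The 4 libraries, 2 per group, held 16145298 to 20479254 counts and 20525 to 21319 detected genes. No label states that the replicates were separate cultures or animals, and all p-values therefore refer to the spread among the 4 libraries, part or all of which may be technical.

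When the T cell receptor is engaged, Ras switches on the kinases Raf, MEK and ERK in turn, and ERK then drives the transcription of growth and cytokine genes. Dual-specificity phosphatases inactivate ERK, p38 and JNK by removing phosphate from the threonine and tyrosine of the activation loop, whereas Sprouty and Spred proteins act upstream, where they hold back Ras and Raf. Many of these inhibitors are themselves transcribed in response to ERK and so form a negative feedback. The phosphatases are not equivalent: DUSP5 and DUSP6 act mainly on ERK, in the nucleus and the cytoplasm respectively, DUSP1, DUSP2 and DUSP4 are inducible nuclear enzymes, and DUSP10 and DUSP16 prefer p38 and JNK.

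The RefSeq promoter sequences of 4 genes are shown first, since these genes form pairs in which each had the profile over the 4 libraries most like the other's among the 10 (Dusp1 with Dusp2, Dusp16 with Spred1). RefSeq promoters on GRCm38.p6, 250 bases before to 50 after a start site, were matched for 9 of the 10 genes. The unmatched gene was Dusp4, whose mutual neighbour was Spry2. Capitals mark matches to any of 7 motifs searched on both strands, namely the cAMP response element (CRE) TGACGTCA, its core TGACG, which lies within it, the AP-1 site TGANTCA, the ETS site CCGGAA, the E-box CACGTG, the FOXO site GTAAACA and the CArG box of serum response factor.
Dusp1, chr17:26508423-26508722, minus strand: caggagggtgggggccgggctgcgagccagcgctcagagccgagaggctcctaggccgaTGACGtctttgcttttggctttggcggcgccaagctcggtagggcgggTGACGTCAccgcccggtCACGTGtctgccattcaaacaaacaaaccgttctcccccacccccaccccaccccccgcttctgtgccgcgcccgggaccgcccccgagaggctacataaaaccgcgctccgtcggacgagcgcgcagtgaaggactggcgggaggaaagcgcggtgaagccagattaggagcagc
Dusp2, chr2:127335909-127336208, plus strand: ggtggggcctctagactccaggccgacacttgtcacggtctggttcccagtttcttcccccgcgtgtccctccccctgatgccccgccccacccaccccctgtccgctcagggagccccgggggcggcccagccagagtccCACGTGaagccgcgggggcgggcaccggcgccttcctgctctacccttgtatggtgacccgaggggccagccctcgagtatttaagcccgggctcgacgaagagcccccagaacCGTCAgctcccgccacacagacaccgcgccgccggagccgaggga
Dusp16, chr6:134792579-134792878, minus strand: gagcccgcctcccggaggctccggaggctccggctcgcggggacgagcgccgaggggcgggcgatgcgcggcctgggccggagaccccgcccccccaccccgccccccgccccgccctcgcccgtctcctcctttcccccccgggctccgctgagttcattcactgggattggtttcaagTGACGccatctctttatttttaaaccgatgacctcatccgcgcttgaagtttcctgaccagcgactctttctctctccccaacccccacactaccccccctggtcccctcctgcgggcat
Spred1, chr2:117120821-117121120, plus strand: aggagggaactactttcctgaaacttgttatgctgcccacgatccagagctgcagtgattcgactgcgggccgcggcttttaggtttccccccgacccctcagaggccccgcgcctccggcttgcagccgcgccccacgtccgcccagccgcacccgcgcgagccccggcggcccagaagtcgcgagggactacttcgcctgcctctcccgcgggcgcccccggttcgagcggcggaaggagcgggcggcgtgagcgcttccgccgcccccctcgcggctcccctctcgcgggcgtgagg

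The promoters of Dusp1 and Dusp2 each held an E-box and the CRE core. Dusp1 held the complete CRE, which 1.79% of the 32851 listed promoters hold, together with a separate copy of the core. The core was found in 20.8% of listed promoters and in those of Dusp1, Dusp2, Dusp5 and Dusp16. An E-box was found in 7.15% of listed promoters and in those of Dusp1 and Dusp2. The promoter of Dusp5 held 2 adjacent CArG boxes, a motif present in 1.63% of listed promoters. An ETS match was found in the promoter of Spry2 only among the 9, against 14.9% of listed promoters, and none of the 9 held the AP-1 or FOXO letters in this window (7.81% and 3.65% of listed promoters). Spred1 and Spry1, like Dusp6 and Dusp10, held no match to the 7 motifs. All 9 promoters were richer in G and C (57.3% to 72.3%) than the median listed promoter (52.7%). The shares over listed promoters are not matched for this composition, and its part in the matches was not tested. The matches describe the sequence and not binding.

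In DMSO-treated cells the phosphatases covered a wide range of levels, with the ERK phosphatases at the top. Levels between genes were compared as deposited FPKM, fragments scaled for gene length and library depth. Dusp6 stood at 51.9 and 79.7 FPKM in the 2 DMSO libraries, at percentile 95.1 of the tested genes. Dusp5 stood at 41.9 and 41.3 FPKM and Dusp4 at 42.2 and 30.9 FPKM, so these 2 neighbours in the order overlapped. Dusp10 followed at 15.3 and 27.1 FPKM and Dusp2 at 10.7 and 12.0 FPKM. Spred1 (7.02 and 6.33 FPKM) and Dusp16 (5.10 and 6.58 FPKM) overlapped, as did Dusp1 (2.62 and 2.64 FPKM) and Spry1 (3.22 and 1.70 FPKM). Spry2 was lowest of the 10, at 1.32 and 0.731 FPKM, or percentile 21.0 of the tested genes. All other neighbours in this order lay apart in the DMSO libraries. With HU-308 the mean FPKM put Dusp10 at rank 2 of the 10 instead of 4, and Dusp1 at rank 6 instead of 8. The change for Dusp10 rests on HU-308 replicate 2, where it stood at 70.0 FPKM. In HU-308 replicate 1 it stood at 30.8 FPKM, still below Dusp6, Dusp5 and Dusp4 (48.0, 41.1 and 36.7 FPKM).

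**Figure D1:**
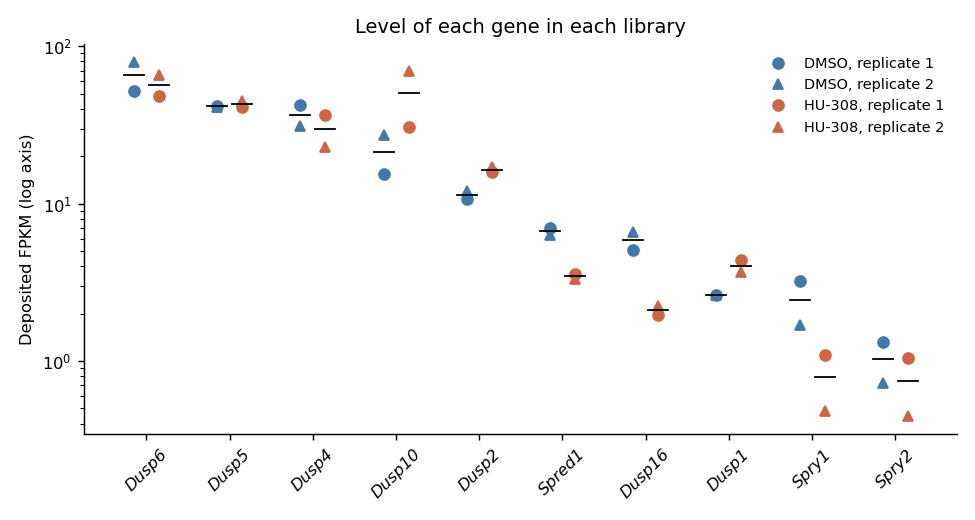
Deposited FPKM (log axis) of the 10 genes in each of the 4 libraries, ordered by the DMSO mean; circles are replicate 1, triangles replicate 2, and black lines the mean of the 2 libraries of a group. Dusp10, Dusp2 and Dusp1 lie higher in both HU-308 libraries than in both DMSO libraries, Spred1, Dusp16 and Spry1 lie lower, and the other 4 overlap.

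Under HU-308, 3 genes (Dusp10, Dusp1 and Dusp2) were higher in both libraries than in both DMSO libraries, 3 (Dusp16, Spred1 and Spry1) were lower, and 4 (Dusp5, Dusp6, Dusp4 and Spry2) overlapped. A separation of this kind was seen in 6 of the 10 genes and in 51.3% of all tested genes (25.9% higher and 25.4% lower), so the count itself does not mark these genes out. The edgeR quasi-likelihood test, with Benjamini-Hochberg adjustment over all tested genes and a threshold of 0.05, called 0 of the 10 and 0.314% of all tested genes. At an unadjusted p under 0.05, 6 of the 10 passed, against 18.8% of all tested genes. DESeq2 called 4 of the 10 (Dusp16, Spred1, Dusp10 and Spry1) and 6.01% of the genes to which it gave an adjusted p. In the authors' deposited table the same 4 genes had an adjusted p under 0.05, against 3.13% of its genes with an adjusted p. These shares differ mainly in their denominators, 728 of 23290 genes in the deposited table and 732 of 12188 in the DESeq2 fit. The deposited log2 fold changes of the 10 nearly equalled those of the DESeq2 fit (Dusp16, −1.47 in both), so the deposited calls are not independent of it. Limma-voom and limma on log2 FPKM called 0 of the 10 (0.356% and 0% of all tested genes), as did edgeR with library-size or RLE scaling (0.140% and 0.314%). In edgeR without the low-count filter 2 of the 10 passed (2.19% of genes). The fits that left out a library called 1 of the 10 without DMSO replicate 1 (0.724% of genes) and 2 without DMSO replicate 2 (2.24%). Leaving out HU-308 replicate 1 gave 1 of the 10 (0.903%), and leaving out HU-308 replicate 2 gave 0 (0.243%). The median log2 fold change of the 10 was −0.24, against 0.02 over all tested genes, and the median of the absolute log2 fold changes was 0.58 against 0.30. Of the 10 values 6 were negative, and 47.9% of all tested genes had a negative value. Because the libraries are bulk RNA, fewer cells with a transcript and less transcript per cell cannot be told apart.

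**Figure D2:**
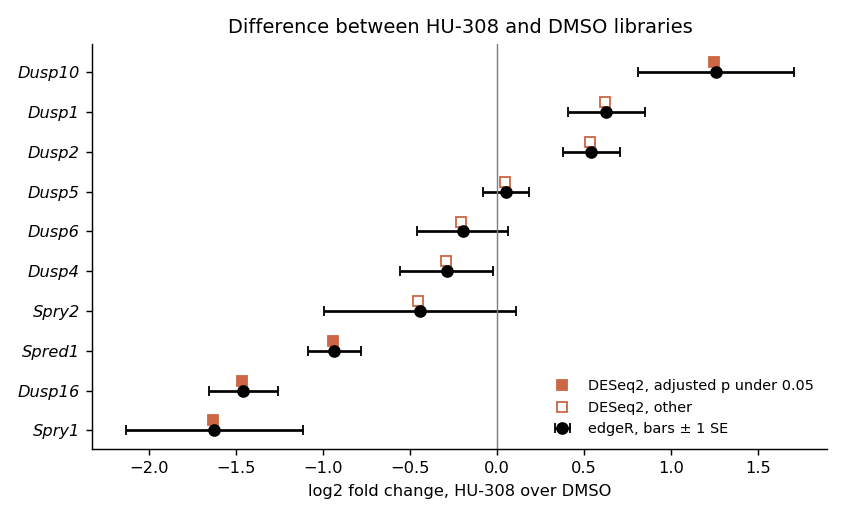
Log2 fold change of HU-308 over DMSO for the 10 genes, with edgeR estimates and 1 SE in black and DESeq2 estimates as squares, filled where the DESeq2 adjusted p was under 0.05. Dusp10 has the highest value (1.26) and Spry1 the lowest (−1.63), and the 4 filled squares are Dusp10, Spred1, Dusp16 and Spry1.

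The phosphatases with a preference for p38 and JNK stood at opposite ends. Dusp16 (ENSMUSG00000030203, chromosome 6, 134715468 to 134792625 on GRCm38) encodes a phosphatase that acts chiefly on JNK and has been linked in mice to the balance of T helper cytokines. Its CPM, read counts scaled for library size with TMM factors, were 40.0 and 51.6 with DMSO and 15.4 and 17.8 with HU-308. Both HU-308 libraries lay well below both DMSO libraries, 2.75-fold by the edgeR estimate. The log2 fold change of Dusp16 was −1.46 ± 0.20 (SE), with the lowest adjusted p of the 10 genes (edgeR adjusted p = 0.0646, DESeq2 adjusted p = 3.64e-06). In edgeR it passed the threshold without DMSO replicate 1 (adjusted p = 0.0223), without DMSO replicate 2 (0.0263) and without the low-count filter (0.00294); over all alternatives its log2 fold change ran from −1.65 to −1.13, and over those without a replicate block its adjusted p ran from 3.64e-06 to 0.125.

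Dusp10 (ENSMUSG00000039384, chromosome 1, 184013302 to 184075636) encodes MKP-5, a phosphatase of p38 and JNK that tempers T cell cytokine output in mice. It stood at 46.9 and 82.9 CPM with DMSO and at 94.0 and 216.5 CPM with HU-308. The HU-308 libraries were both above the DMSO libraries, but the gap between DMSO replicate 2 and HU-308 replicate 1 was small beside the spread within each group. The log2 fold change of Dusp10 was 1.26 ± 0.45 (SE; edgeR adjusted p = 0.226, DESeq2 adjusted p = 0.0107). It was 1.74 without HU-308 replicate 1, where it passed the edgeR threshold (adjusted p = 0.0339), and 0.53 without HU-308 replicate 2 (adjusted p = 0.626). Without DMSO replicate 1 it was 0.88. Over the alternatives without a replicate block the adjusted p ran from 0.0107 to 0.626.

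The ratio of Dusp10 to Dusp16 within a library does not depend on how libraries are scaled. It was chosen after the values had been seen and is given as a description. The FPKM of Dusp10 was 3.01 and 4.12 times that of Dusp16 with DMSO, and 15.6 and 31.1 times with HU-308. Within the summed FPKM of the 7 phosphatases, Dusp16 made up 3.01% and 3.29% with DMSO and 1.10% and 0.994% with HU-308. Dusp10 made up 9.04% and 13.5% with DMSO and 17.2% and 30.9% with HU-308, and in HU-308 replicate 2 it was above Dusp6 (1.06 times its FPKM). The summed FPKM itself overlapped between groups, at 169.7 and 200.3 with DMSO and 178.8 and 226.4 with HU-308.

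**Figure D3:**
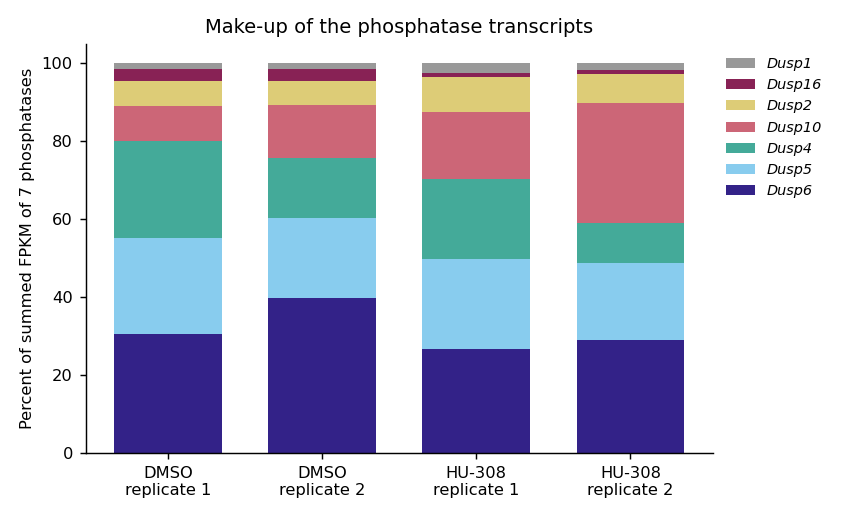
Share of each of the 7 phosphatase genes in their summed FPKM, in percent, for each library. Dusp10 takes 9.04% and 13.5% with DMSO against 17.2% and 30.9% with HU-308, while Dusp6 takes 26.8% to 39.8% over the 4 libraries.

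The inducible nuclear phosphatases Dusp1 and Dusp2 had the most similar profiles of any pair among the 10 (root mean square difference of centred log2 CPM 0.14 over the 4 libraries). Dusp1, an immediate early gene whose product inactivates p38, JNK and ERK, stood at 7.10 and 7.15 CPM with DMSO and 11.9 and 10.1 CPM with HU-308. Dusp2, also known as PAC-1 and abundant in activated lymphocytes, stood at 21.5 and 24.2 CPM with DMSO and 31.9 and 34.5 CPM with HU-308. Both were higher in every HU-308 library than in every DMSO library, with differences of similar size. The log2 fold change of Dusp1 was 0.63 ± 0.22 (edgeR adjusted p = 0.220, DESeq2 adjusted p = 0.366). That of Dusp2 was 0.54 ± 0.16 (edgeR adjusted p = 0.178, DESeq2 adjusted p = 0.252). Neither difference held up after adjustment over all genes by either tool. Dusp1 rests on 123 to 201 reads per library and shares 0.332% of its exon bases with Ergic1 on the opposite strand, which makes a small part of its reads uncertain if strand was ignored.

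Dusp4, another inducible nuclear enzyme, stood at 116 and 85.2 CPM with DMSO and 101 and 63.6 CPM with HU-308. The groups overlapped, and the difference between replicates within each group was larger than that between groups (log2 fold change −0.29 ± 0.27, edgeR adjusted p = 0.593). Leaving out HU-308 replicate 2 gave 0.0043, and leaving out HU-308 replicate 1 gave −0.66.

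The phosphatases most specific to ERK did not separate the groups. Dusp6, a cytoplasmic enzyme commonly read as a marker of ERK activity, was the most abundant of the 10 in all libraries except HU-308 replicate 2. It stood at 163 and 251 CPM with DMSO and at 151 and 210.2 CPM with HU-308. The spread within each group exceeded the difference between them, with a log2 fold change of −0.20 ± 0.26 (edgeR adjusted p = 0.716). The sign turned without DMSO replicate 2 (0.15) and when HU-308 replicate 1 was left out (0.023). Dusp5, its nuclear counterpart, was the steadiest of the 10, at 104 and 103 CPM with DMSO and 102 and 112 CPM with HU-308 (0.05 ± 0.13, edgeR adjusted p = 0.870). Leaving out HU-308 replicate 2 gave −0.021. In GENCODE mouse release 21, 22.1% of the exon bases of Dusp5 are shared with AC137853.2 on the opposite strand, a gene not analysed here, which makes the counts of Dusp5 uncertain if strand was ignored in counting.

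Genes of the Sprouty family lay on the lower side. Spred1 (ENSMUSG00000027351, chromosome 2, 117121374 to 117182279), which recruits the Ras inhibitor neurofibromin to the membrane, stood at 47.8 and 43.1 CPM with DMSO and 24.5 and 23.0 CPM with HU-308. Replicates agreed closely in both groups and the levels with HU-308 were about 1.91-fold lower. The log2 fold change of Spred1 was −0.94 ± 0.15 (edgeR adjusted p = 0.0802, DESeq2 adjusted p = 0.00437). In edgeR it passed the threshold without DMSO replicate 2 (adjusted p = 0.0474) and without the low-count filter (0.0235), and over all alternatives its log2 fold change ran from −1.01 to −0.78. Its adjusted p ran from 0.00437 to 0.297 over the alternatives without a replicate block. Spry1 (chromosome 3, 37639947 to 37644598), a membrane-associated inhibitor of Ras and ERK signalling, stood at 9.40 and 4.95 CPM with DMSO and 3.21 and 1.42 CPM with HU-308. These values come from 163, 97, 54 and 24 reads. The groups did not overlap, but the gap between the nearest libraries of different groups was narrower than the spread within either group. Spry1 had a log2 fold change of −1.63 ± 0.51 (edgeR adjusted p = 0.187, DESeq2 adjusted p = 0.0348), which lay between −2.33 (HU-308 replicate 1 left out) and −0.94 (limma on log2 FPKM with a pseudocount of 1) over all alternatives. In GENCODE mouse release 21, 24.4% of its exon bases are shared with Gm42922 on the opposite strand, which had 17 reads over the 4 libraries. Spry2, the paralogue most studied in growth factor signalling, had 48 and 30 reads with DMSO and 37 and 16 with HU-308, or 2.77, 1.53, 2.20 and 0.948 CPM. Its groups overlapped (−0.44 ± 0.55, edgeR adjusted p = 0.698), and the sign turned without DMSO replicate 1 (0.021) and when HU-308 replicate 2 was left out (0.037).

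Over the whole family, all 5 tested Sprouty and Spred genes had negative log2 fold changes, as did 47.9% of all tested genes, also under RLE and library-size scaling; Spry2 turned positive in the leave-outs given above. In edgeR 0 of the 5 passed the threshold. At an unadjusted p under 0.05 there were 2 (18.8% of all tested genes), and DESeq2 called the same number (6.01% of genes), Spred1 and Spry1 in each case. Spred2 and Spred3, close relatives of Spred1, had log2 fold changes of −0.16 ± 0.14 and −0.43 ± 0.22. Spry3 and Spry4 did not pass the low-count filter, with at most 0.178 and 0.664 CPM in any library.

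Dusp6, Dusp4 and Spry2 differed more between the replicates of each group than between the groups. In both groups Dusp10 and Dusp6 were higher in replicate 2, by 1.77-fold and 1.54-fold with DMSO and by 2.3-fold and 1.39-fold with HU-308. Spry1, Spry2 and Dusp4 were lower in replicate 2 of both groups, Spry1 by 1.90-fold with DMSO and 2.26-fold with HU-308. In contrast, Spred1 differed between replicates by 1.11-fold and 1.06-fold, and Dusp16 by 1.29-fold and 1.15-fold. For 8 of the 10 genes replicate 2 lay on the same side of replicate 1 in both groups, as it did for 70.9% of all tested genes. The 3 genes whose profile was most like that of Dusp6 over the 4 libraries were Rrm2b, 1810037I17Rik and Inpp5d, with root mean square differences of centred log2 CPM of 0.023, 0.032 and 0.033 among 10435 genes compared. All 3, like Dusp6, were higher in replicate 2 of both groups, which follows from how they were picked.

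**Figure D4:**
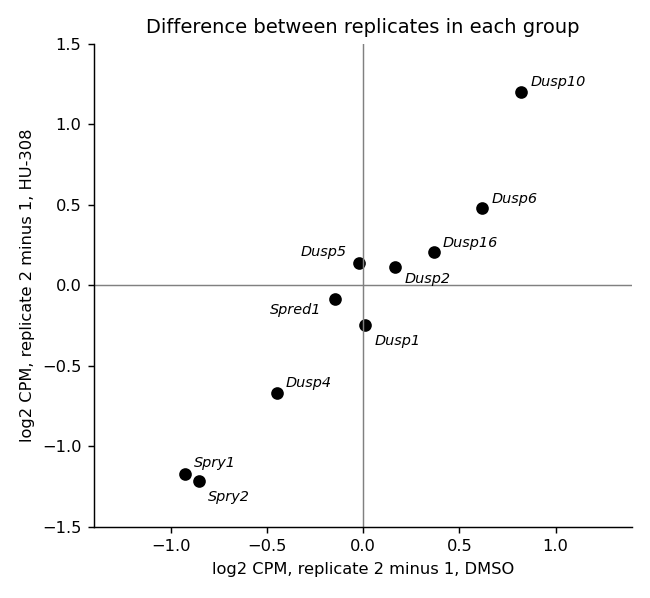
Difference in log2 CPM between replicate 2 and replicate 1 with DMSO (x axis) and with HU-308 (y axis), 1 point per gene. Dusp10 lies farthest to the upper right and Spry1 and Spry2 to the lower left, while Dusp5, Dusp2, Spred1 and Dusp1 lie near 0 on both axes.

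Relatives outside the 10 and the kinases they act on were read from fixed lists, each beside the median of 0.02 over all tested genes. Over all tested genes 0.314% passed the edgeR threshold and 18.8% had an unadjusted p under 0.05. DESeq2 called 6.01% of the genes to which it gave an adjusted p. Of 13 other tested dual-specificity phosphatase genes, 0 passed the edgeR threshold (2 at an unadjusted p under 0.05, 0 by DESeq2) and the median log2 fold change was −0.04. The most abundant of them per length, Dusp11, an RNA phosphatase, Dusp7, a cytoplasmic ERK phosphatase, and Ssh2, a cofilin phosphatase, had values of −0.18 ± 0.12, −0.04 ± 0.15 and −0.23 ± 0.13. Of 17 genes of the Ras to ERK cascade, 0 passed in edgeR (4 at an unadjusted p under 0.05, 2 by DESeq2) and the median was −0.10. Under library-size scaling, which moved the median of all tested genes to 0.14, the medians of these lists turned positive, at 0.08 and 0.02. Mapk3, which encodes ERK1, stood at 0.41 ± 0.13. The Ras activators Rasgrp2 and Sos1 had the largest values of that list, 1.23 ± 0.18 (edgeR adjusted p = 0.0675) and −0.77 ± 0.21, followed by Nras at −0.50 ± 0.14.

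Among 13 tested p38 and JNK pathway kinases, 1 rose and 0 fell, with a median of −0.05, while over all tested genes 0.0838% rose and 0.231% fell. Under library-size scaling the median of this list turned positive as well, at 0.07. The riser was Map2k6, an activator of p38, from 12.2 and 11.5 CPM to 49.0 and 52.8 CPM (2.10 ± 0.16, edgeR adjusted p = 0.0389). The call was lost with limma on log2 FPKM (adjusted p = 0.103 and 0.110 with pseudocounts of 1 and 0.1), and over the alternatives without a replicate block the adjusted p of Map2k6 ran from 8.22e-14 to 0.110. Mapk14, the main p38 gene, stood at 0.68 ± 0.20, the JNK gene Mapk8 at −0.69 ± 0.16 and Map2k4, an activator of JNK, at −0.61 ± 0.15.

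Transcripts known to be induced by ERK had the lowest median of the 6 pathway lists described. Of 16 tested, 0 passed the edgeR threshold (6 at an unadjusted p under 0.05, and 4 by DESeq2, all lower), 14 had negative values, and the median log2 fold change was −0.72. Over all tested genes 0.314% passed in edgeR, 18.8% had an unadjusted p under 0.05 and 47.9% had negative values. DESeq2 called 6.01% of the genes to which it gave an adjusted p. Under library-size scaling the negative values numbered 13 and the median was −0.60. Etv5, an ETS factor that follows ERK activity in many tissues, stood at 42.7 and 22.4 CPM with DMSO and 10.6 and 9.06 CPM with HU-308 (−1.72 ± 0.34, edgeR adjusted p = 0.0959, DESeq2 adjusted p = 2.96e-05). Both HU-308 libraries lay below both DMSO libraries. Fos had a log2 fold change of −2.56 ± 0.45, Myc of −1.56 ± 0.44 and Egr1 of −1.44 ± 0.38 (edgeR adjusted p = 0.0865, 0.159 and 0.149). The 2 values above 0 were those of Ier2 (0.37 ± 0.13), higher in both HU-308 libraries than in both DMSO libraries, and Junb (0.0051 ± 0.27). Among the feedback genes described above, Dusp6 and Dusp5 stood at −0.20 and 0.05 and the inducible Dusp1 and Dusp2 at 0.63 and 0.54. Spry1, Spred1, Spry2 and Dusp4 were all negative, at −1.63, −0.94, −0.44 and −0.29. Of these, Spry2 and Dusp4 overlapped between the groups, and both could turn sign with 1 library left out. Dusp16 stood at −1.46 and Dusp10 at 1.26. The difference between the lists was not tested.

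**Figure D5:**
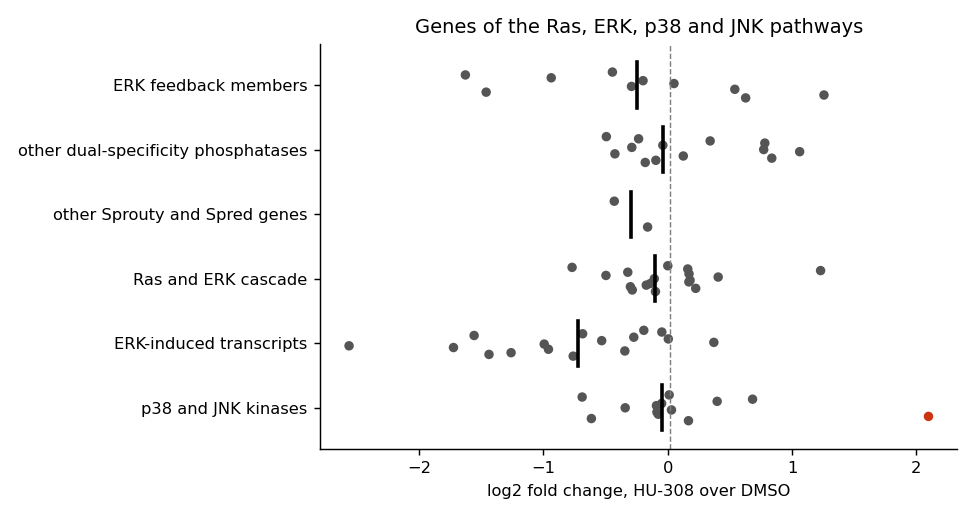
Log2 fold change of HU-308 over DMSO for every tested gene of 6 lists, 1 point per gene, with the list median as a black bar and the median of all tested genes (0.02) as a dashed line. The red point, Map2k6 at 2.10, passed the edgeR threshold, and the ERK-induced transcripts have the lowest median, −0.72.

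The cells carried the markers of CD4 T cells, with Cd4 at 401 to 576 CPM and Gata3, the Th2 lineage factor, at 302 to 493 CPM. Of the 10 CD4 T cell markers 0 passed the edgeR threshold (5 at an unadjusted p under 0.05, and 2, Il4 and Cd2, by DESeq2, both lower), 7 had values above 0 and the median log2 fold change was 0.17. The shares over all genes were 0.314% in edgeR, 18.8% at an unadjusted p under 0.05 and 6.01% by DESeq2. Cd5, Cd3d and Cd3e, at 0.61, 0.60 and 0.36, were higher in both HU-308 libraries than in both DMSO libraries. Gata3, Cd2 and Il4 were lower in both, and the remaining markers of this list overlapped. Gata3 stood at 493 and 486 CPM with DMSO and 385 and 302 CPM with HU-308 (−0.51 ± 0.16, edgeR adjusted p = 0.192). Cd2 had a log2 fold change of −0.97. Il4 stood at 26.4 and 27.8 CPM with DMSO and 10.9 and 9.71 CPM with HU-308. The summed level of the 6 CD8 T and NK cell markers was 13.1 and 16.7 CPM with DMSO and 16.2 and 20.8 CPM with HU-308, with Klrb1c at 0 in every library. The 6 B cell markers summed to 4.10 and 6.79 CPM with DMSO and 6.24 and 7.76 CPM with HU-308. The 8 myeloid markers summed to 74.6 and 122 CPM with DMSO and 61.4 and 95.7 CPM with HU-308. Lyz2, S100a8 and S100a9 stood at 0 in every library. Adgre1, at 26.4 to 74.1 CPM, and Fcgr3, at 34.2 to 47.2 CPM, were higher in replicate 2 of both groups, as were Dusp6 and Dusp10. For 70.9% of all tested genes replicate 2 lay on the same side of replicate 1 in both groups. Fcgr3 was lower in both HU-308 libraries than in both DMSO libraries, as were 25.4% of all tested genes. The 8 handling stress genes summed to 1677 and 1108 CPM with DMSO and 958 and 705 CPM with HU-308, most of it Hsp90aa1, and 0 of 7 tested passed the edgeR threshold (3 at an unadjusted p under 0.05, and 3 by DESeq2, all lower). Of these 7 genes 4 had values above 0, and their median log2 fold change was 0.27. The part of these markers in the differences above was not tested.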

How the data were processed

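RNA sequencing of 4 libraries was analysed, HU-308 against DMSO, 2 against 2. Per the submitters' processing notes Bowtie2 2.3.4.3, RSEM 1.3.1, DESeq2 1.4.5 and GRCm38 (mm10) were used; the role of each, the annotation and the strand setting are not given in the sources used here. The deposited read counts per gene are whole and unscaled, per the file headers and values. The authors scaled the FPKM values by the deposited gene length and a library depth of their own. The authors' deposited log2 fold change, p-value columns and signal columns (group means of scaled counts) were read only where named.

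Counts were tested in R 4.3.3 with edgeR 4.0.16: filterByExpr (minimum count 10, minimum total 15), TMM scaling, quasi-likelihood F test without covariates (2 residual degrees of freedom), Benjamini-Hochberg adjustment over 14316 genes at 0.05. The common dispersion corresponds to a coefficient of variation of 19.8%. The SE is the absolute log2 fold change over the square root of F. Alternatives used DESeq2 1.42.0, limma 3.58.1 (voom, and log2 FPKM with pseudocounts of 1 and 0.1), other scaling and filters, a replicate block and each library left out. The main edgeR fit was also run on simulated counts, drawn independently for each library. The alternatives were not run on simulated counts.

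The genes and gene lists were chosen with earlier results of these data known, so no list was tested as a set. Named genes are the 10 genes, up to 3 of each list of relatives, by mean FPKM, up to 4 of each other list, with passing genes first and then by absolute log2 fold change, and the 3 profiles nearest to Dusp6. Spry3, Spry4, Ier2, Junb and the markers were named after their values were seen. The list of Ras GTPase-activating proteins is not reported here. Figures were drawn with matplotlib 3.10.9 in Python 3.11.15.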

Additional observations from a re-analysis of the deposited data

How the results depend on the processing

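Of 130 comparisons of a gene's log2 fold change with an alternative (10 genes, 13 alternatives), 107 kept their direction and their side of the threshold, 17 passed the threshold with the direction kept, and 6 turned sign, each with 1 library left out. These were Dusp6 (−0.50 to 0.15 with each library left out), Spry2 (−1.17 to 0.037), Dusp4 (−0.66 to 0.0043) and Dusp5 (−0.021 to 0.12). Dusp10, Dusp1 and Dusp2 stayed positive and Dusp16, Spred1 and Spry1 negative under all 13. A fit without 1 library has 1 residual degree of freedom, and its lone library is assumed to vary like the other group.

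Of the 10 genes, 0 passed in edgeR, 2 without the low-count filter (25576 genes tested), 4 with DESeq2, 7 with a replicate block and 0 to 2 with each library left out. Their median log2 fold change of −0.24 was −0.13 with library-size scaling, a setting that shifts the all-gene median by 0.118 (relative to that median the 10 stood at −0.27 in both), and −0.32 to −0.0081 with each library left out. Over all genes, the 12 higher and 33 lower calls became 8 and 12 with library-size scaling, 190 and 371 without the filter, 8 and 20 with at least 1 CPM in 2 libraries, 246 and 486 with DESeq2, 0 and 0 with limma on log2 FPKM at either pseudocount, and 10 to 93 and 27 to 244 with each library left out. The cause was not tested.

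With the replicate number as a block, 2394 genes were called higher and 2445 lower. Libraries of the same number deviated together (correlation of deviations from the group means 0.46), but with 2 pairs and no label that ties the numbers to a culture, animal or day, the numbers are not taken as a pairing. The block left Dusp5, Dusp6 and Spry2 short of the threshold and called the other 7 (33.8% of all tested genes). The order of the 10 genes by level was the same by TMM-scaled CPM per kilobase. Spry1 and Spry2 rest on 16 to 163 reads per library; whether depth limits them was not tested.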
